A study of Mus musculus with 2 samples.

Results

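Prostanoid genes were described in cultured mouse endothelial cells with and without Cre-mediated deletion of Snail1. The 10 members named by the rule are enzymes and receptors of prostaglandin and thromboxane signalling: Ptgs1, Ptgs2, Ptges, Ptgis, Ptger2, Ptger4, Ptgds, Hpgd, Pla2g4a and Tbxas1. Their probe sets were those whose only gene symbol in the platform annotation was a member's name. This gave 15 probe sets for 9 of the 10 members, out of 18193 genes in all. Ptgs1 was not analysed here because no probe set carried its symbol alone. The list was chosen by its genes' roles and by the measured difference between these 2 arrays, so all its differences are given as a description, without a test.

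Primary endothelial cells came from C57/BL6 embryos at stage E10.5 with both Snail1 alleles floxed (Snail1f/f), so every cell in the study carried that genotype. Culture was in DMEM with 20% fetal bovine serum and an endothelial growth factor cocktail. Cells given adeno-βGal formed the WT group and cells given adeno-Cre the Snail1 KO group, and RNA was taken after a recovery of several days. Each group was measured on 1 Affymetrix array, from 250 ng of total RNA. Whether the cells of an array came from 1 embryo or a pool is not given in the sources used here. Both groups received an adenovirus, but each its own and only the Snail1 KO cells one with Cre, so loss of Snail1, the Cre protein and any difference between the viruses cannot be told apart. Expression is given as a log2 value made by RMA, a method that corrects background and puts both arrays on 1 distribution. Differences are Snail1 KO minus WT.

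Prostanoids are short-lived lipid signals made from arachidonic acid. Cytosolic phospholipase A2 (Pla2g4a) frees the acid from membranes, the cyclooxygenases (Ptgs1 and Ptgs2, or COX-1 and COX-2) turn it into prostaglandin H2, and terminal synthases turn that into prostaglandin E2 (Ptges), prostaglandin D2 (Ptgds), prostacyclin (Ptgis) or thromboxane A2 (Tbxas1). Hpgd inactivates prostaglandins, and Ptger2 and Ptger4 encode the prostaglandin E2 receptors EP2 and EP4. Endothelium is known as a main source of prostacyclin, which relaxes vessels and keeps platelets from clumping, and COX-2 is known as the cyclooxygenase induced by cytokines and growth factors.

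The measured members of the first steps, arachidonic acid release and cyclooxygenation, were lower after Cre. Ptgs2 was 8.44-fold lower, Pla2g4a 4.59-fold lower and the receptor gene Ptger4 2.12-fold lower. The prostacyclin synthase gene Ptgis was 1.71-fold lower, and Hpgd, which encodes the inactivating enzyme, was 1.83-fold higher. The other terminal synthases among the members, Ptges, Ptgds and Tbxas1, were within 1.22-fold of their WT value in the brightest probe set. A gene was analysed where the mean of its brightest probe set over both arrays exceeded 3.97, a log2 value set at the 40th percentile of probe sets. This left 8 of the 9 measured members and 12874 genes. Of the 8 members, 3 were at least 2-fold lower and 0 at least 2-fold higher, against 1.84% and 0.971% of all analysed genes. Of the members' 11 probe sets above that level, 4 were at least 2-fold lower and 0 at least 2-fold higher, against 1.52% and 1.57% of 23310 probe sets. Nothing is read from these contrasts, since the list was drawn from them. The median difference of the 8 members was -0.53, that of all analysed genes -0.0083. The members' median was -0.28 without the filter, which adds Ptger2, and -0.93 with the filter at the 60th percentile, which leaves 4 members.

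**Figure D1:**
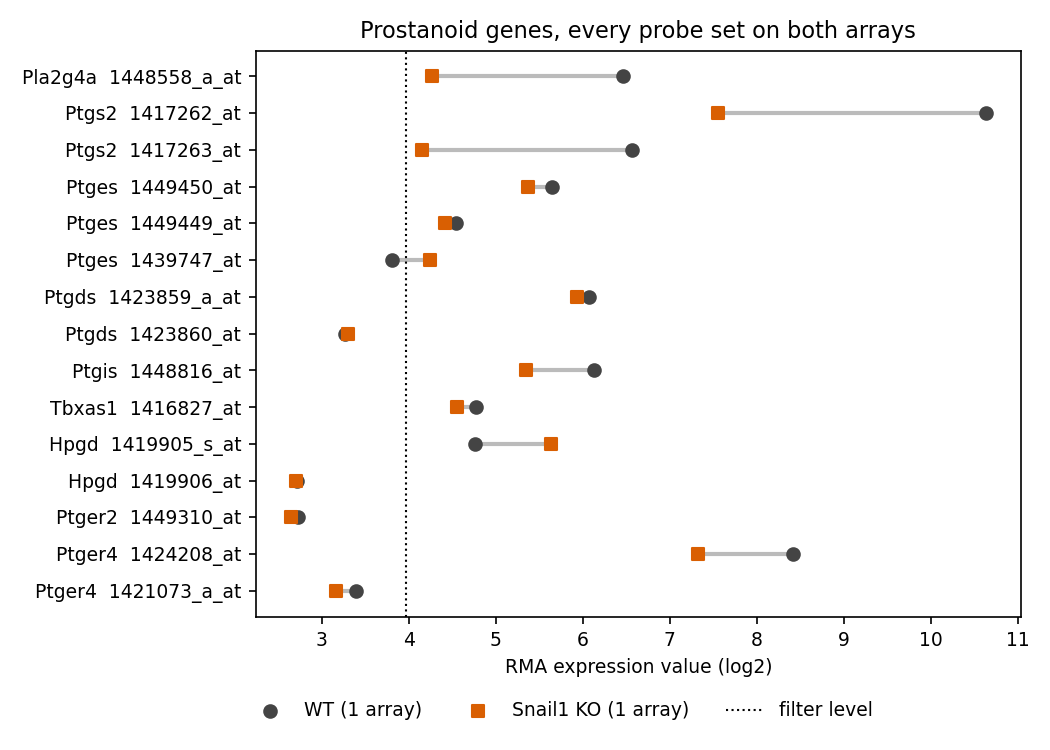
Log2 expression value of each of the 15 probe sets of prostanoid members on the WT array (circles) and the Snail1 KO array (squares), with the filter level of 3.97 as a dotted line and 1 array per group. Both Ptgs2 probe sets, the Pla2g4a probe set and the brighter Ptger4 probe set lie further left on the Snail1 KO array, and Hpgd 1419905_s_at lies further right.

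Promoter sequence is shown for the 2 members with the largest lower differences and for the member that was higher, because Snail1 is known to bind E-boxes, the 6-base motif CANNTG, with a preference for CAGGTG. The stretches are the 250 bases before the RefSeq start on build GRCm38.p6, read 5′ to 3′ on the gene's strand, and capitals mark E-boxes. Ptgs2 is taken from chr1:150099781-150100030 on the plus strand, Pla2g4a (the first of its 2 starts in that table) from chr1:149961291-149961540 on the minus strand and Hpgd from chr8:56294302-56294551 on the plus strand.
Ptgs2: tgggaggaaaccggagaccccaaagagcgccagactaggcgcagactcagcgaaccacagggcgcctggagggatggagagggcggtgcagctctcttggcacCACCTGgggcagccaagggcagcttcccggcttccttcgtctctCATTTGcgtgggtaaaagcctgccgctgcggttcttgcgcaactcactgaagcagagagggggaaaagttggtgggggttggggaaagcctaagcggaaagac
Pla2g4a: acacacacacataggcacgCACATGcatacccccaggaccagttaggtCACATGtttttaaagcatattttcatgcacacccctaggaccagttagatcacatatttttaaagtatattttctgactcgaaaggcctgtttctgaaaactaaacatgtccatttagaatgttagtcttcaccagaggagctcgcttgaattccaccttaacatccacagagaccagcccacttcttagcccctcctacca
Hpgd: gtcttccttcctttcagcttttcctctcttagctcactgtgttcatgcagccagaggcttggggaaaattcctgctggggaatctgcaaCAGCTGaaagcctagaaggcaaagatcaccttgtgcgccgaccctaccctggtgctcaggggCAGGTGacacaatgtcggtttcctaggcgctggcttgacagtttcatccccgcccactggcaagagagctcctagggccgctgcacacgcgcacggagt
The Snail-type motif CAGGTG, searched on both strands, was in 2 of the 10 windows of members, those of Ptgs2 and Hpgd. A window ran from 250 bases before the start to 50 bases after it. In Ptgs2 it reads CACCTG at bases -147 to -142 from the start, the motif on the other strand, and in Hpgd CAGGTG at bases -99 to -94. The same motif was in 20.2% of the 32851 windows of that length in the table. One of the genes with the motif was lower on the Snail1 KO array and the other higher.

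Promoter windows were found for 9 of the 10 members, all but Ptgis, with 2 starts for Pla2g4a. Any E-box, a class that includes the Snail-type motif, was in 9 of the 10 windows, with Ptger4 as the exception, and in 72.3% of all windows. Other motifs were searched on both strands for factors known to act on inflammatory and cAMP-driven genes. Of the members' windows, that of Ptgs2 held the cAMP response half-site TGACG, on the other strand at bases 14 to 18, where it overlaps an E-box by 2 bases. This half-site was in 20.8% of all windows. The C/EBP motif TTNNGNAA was in 6 of the 10 windows, at 2 places in Ptgs2, and in 40.7% of all windows. The AP-1 motif TGANTCA was in the windows of Ptgds and Tbxas1, and in 7.81% of all. The TATA motif TATAAA was in those of Tbxas1, Hpgd and the second Pla2g4a start, and in 13.6% of all. These are letter matches, and binding was not measured.

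**Figure D2:**
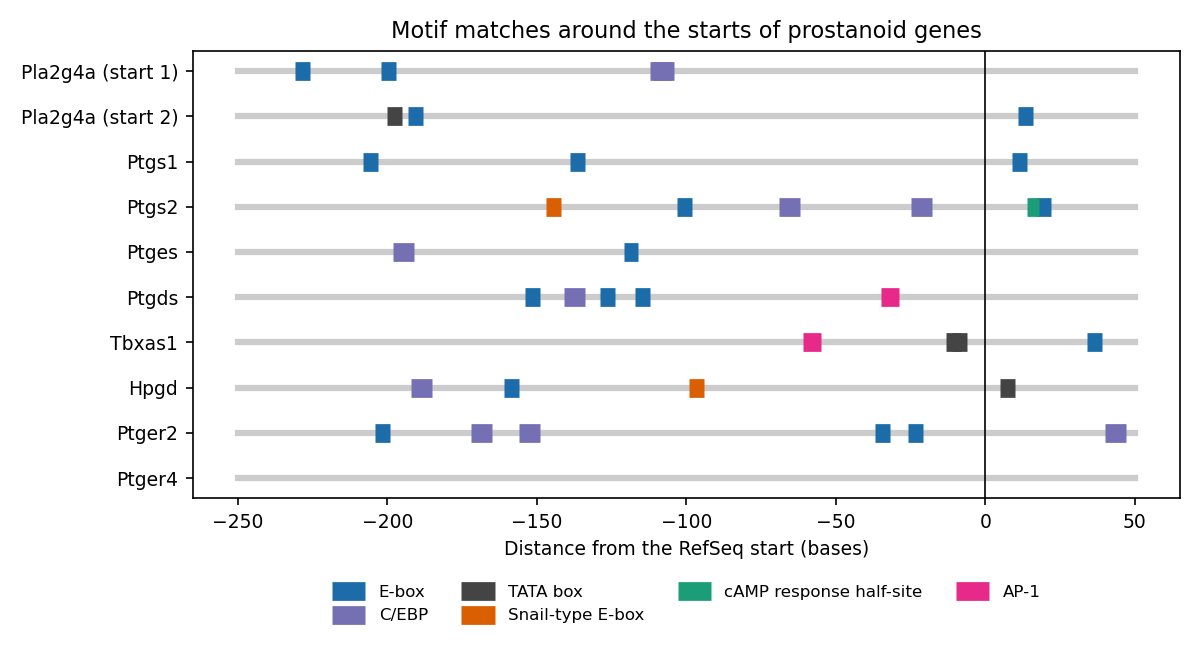
Positions of motif matches in the 10 promoter windows of prostanoid members, in bases from the RefSeq start, with each match as a coloured bar and a Snail-type E-box drawn in place of the E-box it also is. Snail-type E-boxes appear in Ptgs2 and Hpgd, and the Ptger4 window holds no match.

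Pla2g4a encodes the calcium-sensitive phospholipase that supplies arachidonic acid to the cyclooxygenases. Its single probe set, 1448558_a_at, was at 6.46 on the WT array and at 4.27 on the Snail1 KO array. The Snail1 KO value lay just above the filter level. The difference was -2.20, which ranked 38 from the lowest of the 12874 analysed genes, while the robust SD of the difference (from the median absolute deviation) was 0.36 over analysed genes of like level. That SD describes the spread between genes on these 2 arrays and is no replicate error.

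Ptgs2, the inducible cyclooxygenase, had 2 probe sets and both were lower. The brighter, 1417262_at, was at 10.64 on the WT array and at 7.56 on the Snail1 KO array, a difference of -3.08 that ranked 6 from the lowest. The dimmer, 1417263_at, was at 6.57 and 4.15, a difference of -2.42 or 5.34-fold. Both probe sets thus gave the same direction, and the dimmer one ended close to the filter level. Their differences lay 0.66 apart, against an SD of 0.40 for other probe sets of a gene compared with its brightest.

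Ptgs2 and Pla2g4a lie next to each other on mouse chromosome 1, with 0 protein-coding genes between them in the RefSeq table of GRCm38.p6. They start in opposite directions, as the strands of their promoters show. Of the protein-coding genes around the pair, 5 on each side, 8 had a probe set with a single symbol. On the Pla2g4a side, Brinp3, Rgs18, Rgs1 and Rgs13 stayed under the filter level in both groups. On the Ptgs2 side, Pdc and Prg4 were below it too, while Odr4 went from 8.23 to 8.30 and Hmcn1, which encodes the matrix protein hemicentin, from 7.75 to 8.28. Among the neighbours measured above the filter level, neither was lower on the Snail1 KO array. Over the whole annotation, 18 of 8579 pairs of analysed next-door genes were both at least 2-fold lower, a count that includes this pair. Of single analysed genes, 1.84% were at least 2-fold lower. Whether next-door genes share a difference more often than distant ones was not tested. The look at neighbours was chosen after the values of Ptgs2 and Pla2g4a had been seen.

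**Figure D3:**
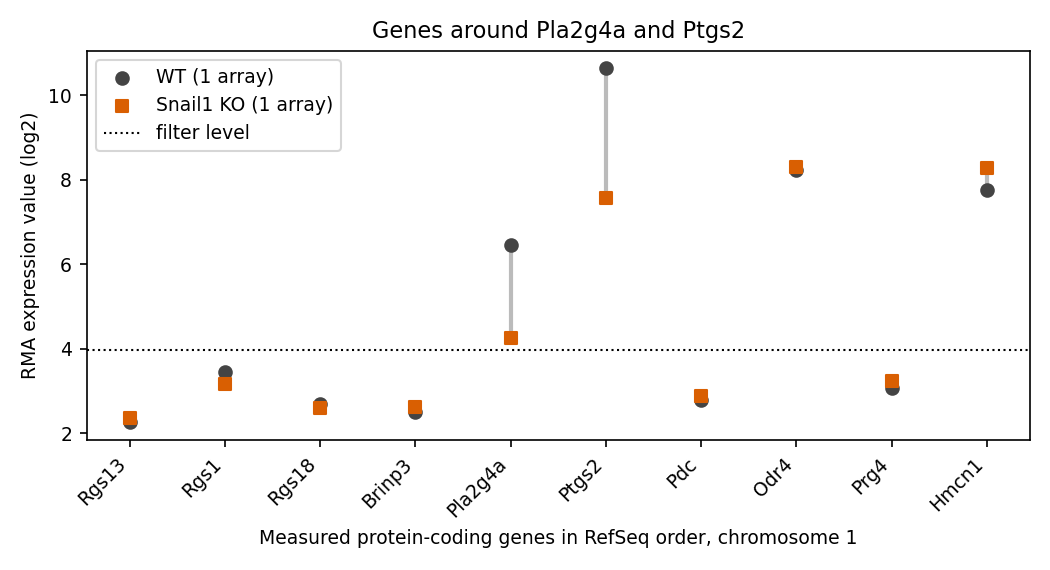
Log2 expression value on the WT array (circles) and the Snail1 KO array (squares) of the 10 measured protein-coding genes around Pla2g4a and Ptgs2, placed in RefSeq order and not to distance, with the filter level of 3.97 dotted and 1 array per group. Pla2g4a and Ptgs2 are lower on the Snail1 KO array, and Odr4 and Hmcn1, the other genes above the filter level, are not.

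Of the 4 terminal synthases among the members, Ptgis had the largest difference. Its probe set 1448816_at gave 6.12 for WT and 5.35 for Snail1 KO, a difference of -0.77 against a robust SD of 0.36 at that level. Ptgis is also known from smooth muscle, and some markers of that cell type differed between the arrays as well. Of 10 smooth muscle and pericyte markers, 8 were analysed and 6 of them were lower. At least 2-fold lower were 3, against 1.84% of all analysed genes. The summed log2 level over all 10 markers was 60.5 on the WT array and 52.4 on the Snail1 KO array. Tagln was 5.83-fold, Acta2 3.60-fold, Myl9 2.51-fold and Cnn1 1.75-fold lower. Pdgfrb was 1.32-fold and Notch3 1.25-fold lower, while Des (5.71 and 5.72) and Cspg4 (5.03 and 5.14) were slightly higher. The defining markers Myh11 and Rgs5 had a mean below the filter level. Myh11 was at 4.16 and 3.25 in its brighter probe set and Rgs5 at 3.32 and 3.25 in its brightest. In these bulk samples fewer cells of a type and less RNA per cell cannot be told apart, and the part of these cells in the Ptgis and Ptgs2 values was not tested.

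The member synthases Ptges, Ptgds and Tbxas1 differed by less than Ptgis in their brightest probe sets. Ptges, the inducible E2 synthase that is known to work with COX-2, had 3 probe sets that did not share a sign. They differed by -0.28 (1449450_at, from 5.65 to 5.37), by -0.14 (1449449_at, from 4.55 to 4.41) and by 0.43 (1439747_at, from 3.81, below the filter level, to 4.24). The robust SD was 0.36 at the level of the brightest of them. Ptgds, the lipocalin-type D2 synthase, was at 6.07 and 5.93 in 1423859_a_at, and its other probe set stayed under the filter level in both groups (3.27 and 3.31). Tbxas1, thromboxane synthase, was at 4.77 and 4.55, a difference of -0.22 against a robust SD of 0.30.

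Hpgd encodes 15-hydroxyprostaglandin dehydrogenase, the first enzyme of prostaglandin breakdown. It was the single analysed member above its WT value. Probe set 1419905_s_at gave 4.76 for WT and 5.63 for Snail1 KO, a difference of 0.87 that ranked 203 from the highest, against a robust SD of 0.32 at that level. Its suffix marks a probe set that can bind several transcripts. The other, 1419906_at, stayed under the filter level in both groups (2.71 and 2.70), so the higher Hpgd value rests on 1 probe set. The mean of both probe sets differed by 0.43.

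Of the prostaglandin E2 receptors, Ptger4 was above the filter level and Ptger2 was not. In 1424208_at Ptger4 gave 8.41 for WT and 7.32 for Snail1 KO, a difference of -1.09 that ranked 203 from the lowest, with a robust SD of 0.31 at that level. Its dim probe set 1421073_a_at stayed under the filter level in both groups (3.39 and 3.17), and the mean of both differed by -0.66. Ptger2 was at 2.72 and 2.64. EP2 and EP4 both raise cAMP, and on these arrays EP4 was the one of them with a signal above the filter level.

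**Figure D4:**
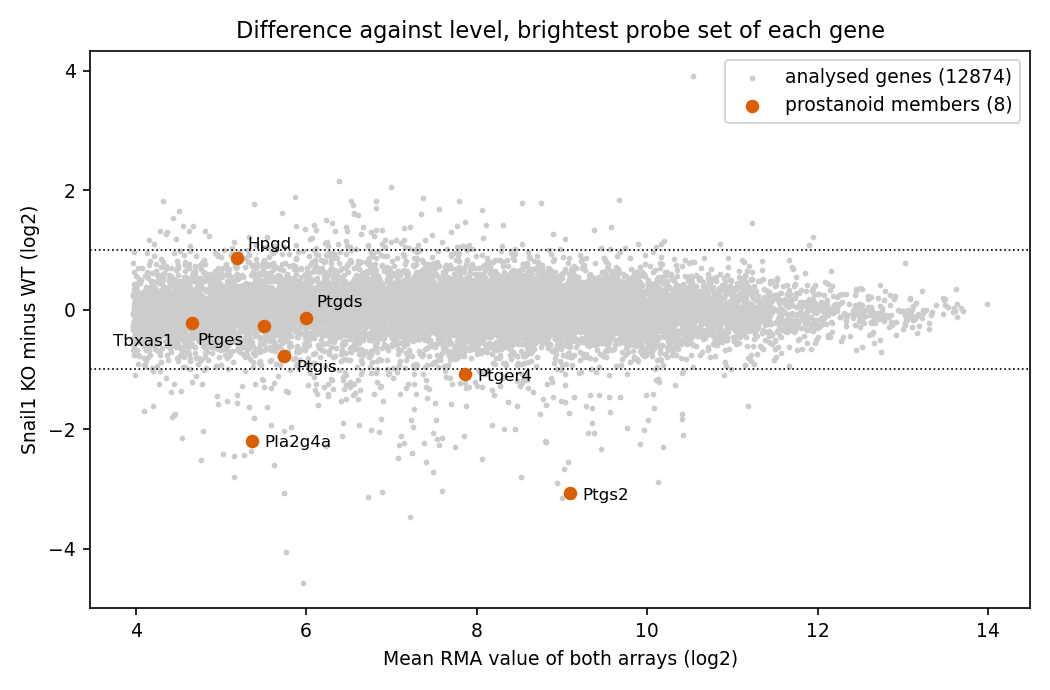
Snail1 KO minus WT (log2) against the mean log2 value of both arrays for the brightest probe set of each of 12874 analysed genes (grey), with the 8 analysed prostanoid members in orange, dotted lines at a 2-fold difference and 1 array per group. Ptgs2, Pla2g4a and Ptger4 lie below the lower line, and Hpgd lies under the upper one.

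Further genes of prostanoid metabolism, from a list beyond the members, mostly stayed within 2-fold. Of 10 enzymes listed, 7 had a probe set and were analysed, 4 were lower and 3 higher, with a median of -0.074. Hpgds, the haematopoietic prostaglandin D2 synthase, was the exception at 2.39-fold higher, from 3.73, below the filter level, to 4.99. Of all analysed genes, 0.971% were at least 2-fold higher. Cbr3, a carbonyl reductase, was 1.48-fold lower, Ptgr1, a prostaglandin reductase, 1.15-fold lower and Cbr1 1.13-fold higher. Hpgds and Tbxas1 are also known from blood cells. Of 14 leukocyte markers, 9 were analysed, 5 lower and 4 higher, and the summed log2 level over the 14 was 69.9 on the WT array and 69.1 on the Snail1 KO array. Mrc1 was 2.88-fold higher, also from a WT value below the filter level, and Coro1a 3.89-fold lower. Little different were Cd14 (8.43 and 8.60), Cd68 (7.27 and 7.20), Lyz2 (6.43 and 6.34), Laptm5 (5.58 and 5.76) and Fcer1g (5.02 and 5.04). Ptprc, Itgam, Adgre1, Tyrobp and Cx3cr1 had a mean below the filter level. Spi1 and Csf1r were 1.20-fold and 1.19-fold lower. Of 6 measured platelet markers, 5 were analysed and 4 were lower, with a summed log2 level of 28.6 and 26.7. Pf4 was 2.37-fold lower, and Treml1, Gp9 and Itga2b were within 1.12-fold. The part of such cells in the Hpgds and Tbxas1 values was not tested.

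Most other prostanoid receptors were dim in these cells. Of the 10 genes in the list of receptors, their partner and transporters, all had a probe set and 4 were analysed. Ptger1, Ptger3, Ptgfr, Ptgir, Ptgdr and Ptgdr2 had a mean below the filter level, and that includes Ptgir, the prostacyclin receptor, with 2.92 for WT and 2.76 for Snail1 KO. Tbxa2r, the thromboxane receptor, was at 6.76 and 7.76, a difference of 1.01 or 2.01-fold. That is so near the 2-fold mark that correcting the difference for level with a lowess curve put it below. Ptgfrn, a partner of the prostaglandin F receptor, was 1.53-fold higher, the prostaglandin transporter gene Slco2a1 1.08-fold higher and the exporter gene Abcc4 1.13-fold lower.

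Other genes that release or recycle arachidonic acid lay on both sides of their WT value. Of 15 listed, 14 had a probe set and 12 were analysed, 5 lower and 7 higher, with 0 past 2-fold in their brightest probe set. Of all analysed genes, 1.84% were at least 2-fold lower and 0.971% at least 2-fold higher. A count of 0 in this list, or in the leukotriene list below, is therefore not read as a difference. Mgll, monoacylglycerol lipase, which frees arachidonic acid from an endocannabinoid, had a brightest probe set 1.74-fold above WT. Its next 2 probe sets differed by 0.98 and 1.27, and the dimmest by -0.10. Pla2g6, the calcium-independent phospholipase, was 1.55-fold higher, Pla2g5, a secreted one, 1.55-fold lower and Acsl4, which activates arachidonic acid for storage, 1.41-fold lower. The leukotriene branch, the other main route of arachidonic acid, had 7 of 12 measured genes above the filter and 0 past 2-fold. In it Aloxe3, a lipoxygenase of skin, was 1.44-fold lower, the leukotriene B4 receptor gene Ltb4r1 1.42-fold lower, Lta4h, which makes leukotriene B4, 1.29-fold higher and Ltc4s, leukotriene C4 synthase, 1.23-fold higher.

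**Figure D5:**
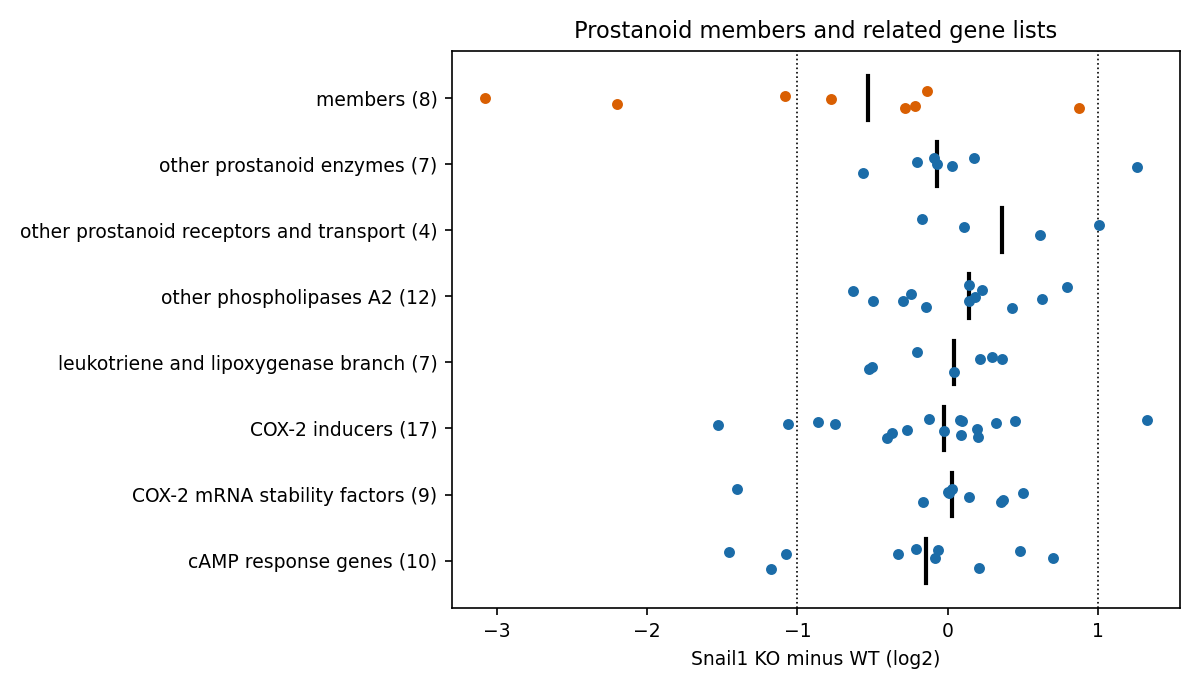
Snail1 KO minus WT (log2) of each analysed gene in the prostanoid member list (orange) and 7 related lists (blue), with the number of analysed genes in brackets, the median as a black bar, dotted lines at a 2-fold difference and 1 array per group. The members' median is -0.53 and the medians of the other lists lie between -0.15 and 0.36.

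Genes known to act on Ptgs2 differed in both directions. Of 19 listed cytokines, receptors and transcription factors, 17 were analysed, with 9 lower and 8 higher and a median of -0.022. At least 2-fold lower were 2 and at least 2-fold higher 1, against 1.84% and 0.971% of all analysed genes. Egr1, an immediate early factor, was 2.89-fold lower, the endotoxin receptor gene Tlr4 2.09-fold lower and the cytokine gene Il6 1.81-fold lower, from 4.55 to 3.69, below the filter level. When its probe sets were averaged, Tlr4 was no longer past 2-fold, and that average takes in a dim probe set (2.98 and 2.76). The Tlr4 probe sets above the filter level differed by -1.06, -1.43 and -0.73. Nfatc1, a calcium-driven transcription factor, was 2.50-fold higher, with all 5 of its probe sets higher by at least 0.86. Fos was 1.68-fold and Myd88 1.33-fold lower, and Creb1 was 1.36-fold higher. The interleukin 1 gene Il1b was at 5.18 and 5.27, Tnf at 4.30 and 3.93, and the NF-kB subunit gene Rela at 10.17 and 10.37. Of 9 measured factors that act on the stability of the Ptgs2 message, Zfp36, which encodes the decay factor tristetraprolin, was 2.65-fold lower. Zfp36l2, Celf2 and Tia1 were between 1.28-fold and 1.42-fold higher.

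Early genes known to rise with cAMP, the messenger of EP2, EP4 and the prostacyclin receptor, also differed in both directions. Of 10 analysed, 7 were lower and 3 higher, with a median of -0.15. At least 2-fold lower were 3 and at least 2-fold higher 0, against 1.84% and 0.971% of all analysed genes. The nuclear receptor genes Nr4a1 and Nr4a2 were 2.74-fold and 2.26-fold lower and Rgs2, a brake on G protein signalling, 2.11-fold lower. When the probe sets of each gene were averaged, Nr4a2 and Rgs2 were no longer past 2-fold, and both averages take in dim probe sets. Nr4a1 has a single probe set, so averaging could not change it. Pde4d, a phosphodiesterase that breaks down cAMP, was 1.63-fold higher.

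Of the 1954 analysed genes within 1 log2 unit of Ptgs2 on the WT array, the 3 with the most similar difference were Ifi202b (-3.16), Iigp1 (-2.91) and Rsad2 (-2.88). Likeness here means a near difference between 2 arrays. All 3 are known as interferon-inducible genes, and Ifi202b belongs to a family of near-identical copies that probes may not tell apart. Whether the lower level of such genes bears on Ptgs2 was not tested.

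The labelled cell type and the deletion were checked on the same arrays. Of 13 endothelial markers, 12 were analysed, with a median difference of 0.097, and Cdh5 was at 11.34 and 11.46, while Vwf had a mean below the filter level. Cldn5 was 2.11-fold, Tek 1.53-fold and Kdr 1.40-fold higher, and Sox17 was 1.38-fold lower. After Cre, Snai1 was 3.35-fold lower, from 5.33 to 3.59, which is below the filter level, and the 4 control probe sets for Cre were higher by 8.04 to 10.17. These 4 belong to the array's own controls, whose other members were not compared here, and the source of their signal was not tested. Markers of other tissues that could carry prostanoid genes had medians of 0.14 (fibroblast) and 0.079 (meningeal and neural). Of 10 fibroblast markers, 6 were analysed, 2 lower and 4 higher, and the other 4 had a mean below the filter level. Col3a1 was 1.998-fold lower, from 7.33 to 6.33, and past 2-fold after the lowess correction. Fbln2 was 1.52-fold, Col1a2 1.24-fold and Dcn 1.12-fold higher. Thy1 was bright at 11.43 and 11.37, near the level of Cdh5, as were Dcn (9.45 and 9.62) and Fbln2 (8.51 and 9.11). Col1a1 was lower in level, at 4.85 and 4.97. The part of such cells in the prostanoid values was not tested. Of 7 measured meningeal and neural markers, 2 were analysed, Foxc1 and Tubb3, and 5 had a mean below the filter level.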

How the data were processed

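Total RNA of 1 WT and 1 Snail1 KO culture was labelled with biotin and measured on Affymetrix arrays, per the labels' protocols. The deposited table holds log2 values for 45101 probe sets, made by the authors with RMA in affy, per the submitters' processing notes. RMA compresses fold differences of dim probe sets. Not given in the sources used here are versions and detection calls, so signal over background is unknown, and the number of arrays limits the precision. Groups came from the sample titles.

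From the deposited log2 values, Snail1 KO minus WT was computed with Python 3.11.15 and pandas 2.3.3. Probe sets with 1 gene symbol in GEO's platform annotation (34945) were kept, and each gene was represented by its brightest. The filter was the 40th percentile of the mean, and genes were counted at a 2-fold difference. With 1 array per group there is no test, standard error or p-value. Robust SDs were taken in 20 bins of level.

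The members and lists were chosen with earlier results of these data known. Named genes were Snai1, all members, up to 4 genes per list with the largest absolute difference and any past 2-fold, dim receptors and the 3 genes most like Ptgs2. Il1b, Tnf, Rela, Fos, Creb1, Myd88, Cdh5, Vwf, the dim markers and the neighbouring genes fall outside that rule. So do Pdgfrb, Notch3, Des, Cspg4, Cd14, Cd68, Lyz2, Laptm5, Fcer1g, Thy1 and Col1a1. All of these were named after their values were seen. Sequences are from RefSeq, build GRCm38.p6. The alternatives were the mean of all probe sets, leaving out probe sets that can bind several transcripts, median centring, a lowess curve, other filters and other fold sizes, and, added after seeing the data, counting probe sets.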

Additional observations from a re-analysis of the deposited data

How the results depend on the processing

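Leaving out an array was not possible with 1 per group. No paired analysis was possible because each group holds 1 sample. A value counted as moved where it shifted by more than 0.32, the robust SD over analysed genes. With the mean of all probe sets, Ptgs2 differed by -2.75, Ptger4 by -0.66 and Hpgd by 0.43, which leaves 2 members at least 2-fold lower. Without probe sets that can bind several transcripts, Hpgd differed by -0.0065 in its dim probe set and Pla2g4a had no value. At the 60th percentile filter the members' median was -0.93, since 4 members remained. At 1.5-fold, 1 member (Hpgd) was higher and 4 lower, and at 3-fold 2 were lower. A count was taken as moved where it changed by more than 1.5 times. By these tolerances 53 of the 59 values of the members under alternatives did not move, and 0 differences past 2-fold changed sign. Many of these values could not move, so their number is no measure of robustness. The lowess curve ranged from -0.13 to 0.080, so it could shift no difference by 0.32. The brightest probe sets of Ptgs2, Ptges, Ptgis, Ptger2, Ptger4 and Tbxas1 have no suffix for several transcripts. Leaving out probe sets with such a suffix therefore could not change these genes. The median difference over all probe sets was 0, so median centring changed nothing. Pla2g4a, Ptgis, Ptger2 and Tbxas1 have a single probe set each, so averaging left their values as they were. The count of members at least 2-fold lower was 3 as reported and 2 to 4 across the alternatives. Across all analysed genes, the mean of all probe sets gave 77 genes at least 2-fold higher in place of 125, and counting 23310 analysed probe sets gave 1.57% higher and 1.52% lower. In place of the 237 lower and 125 higher genes at 2-fold there were 783 and 652 at 1.5-fold and 90 and 23 at 3-fold. Without the filter the median of the other receptors and transporters was -0.022 in place of 0.36. With the mean of all probe sets, 1 COX-2 inducer and 1 cAMP response gene were at least 2-fold lower, against 182 of 12191 analysed genes. By the brightest probe set the counts were 2 of 17 and 3 of 10, against 1.84% of all analysed genes. The genes that remained, Egr1 and Nr4a1, have a single probe set each, so averaging could not change them.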
